A study of Homo sapiens with 36 samples.

Results

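The 10 genes described here belong to bone matrix, to mineralization and to the signals that tumour cells send to bone, and were followed in 4 human PCa cell lines. The genes are RUNX2, SPP1, IBSP, BGLAP, SPARC, ALPL, MGP, PTHLH, FAM20C and EDN1. They were taken by symbol, the counts of all their transcripts were summed, and they are 10 of the 27852 genes with a symbol in the deposited table. Levels are given as CPM, the counts of a gene scaled to a library total of 1000000. RNA from the PCa cells of 36 cultures was sequenced as poly-A RNA on day 5. C4-2 and C4-2B, both derived from LNCaP, stood for BPCa, the osteoblastic phenotype, and DU145 and 22Rv1 stood for LPCa, the osteolytic phenotype. Each line was grown in mono-culture (n = 3), co-cultured with MG63 cells (n = 2), in mono-culture with 50 ng/mL RANKL (n = 2), and with RAW264.7 cells plus RANKL (n = 2). Hence all 16 libraries of the last pair of cultures carried RANKL, and their own control is the mono-culture with RANKL. RANKL is the cytokine that drives osteoclast (OC) formation. MG63 is a human osteosarcoma line that was taken as a stand-in for OBs, and RAW264.7, a mouse monocytic line, forms OCs under RANKL. The partner cells grew in a joined well behind a filter with 0.6 µm pores, so only soluble factors and vesicles could pass between the cells. Each phenotype rests on 2 lines, those of BPCa share their origin, and neither partner is a primary bone cell.

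Prostate tumours in bone often express genes of the OB lineage, which is called osteomimicry. RUNX2 is the transcription factor that opens the OB programme. Its targets include the matrix proteins osteopontin (SPP1), bone sialoprotein (IBSP) and osteocalcin (BGLAP), while SPARC, or osteonectin, binds collagen and calcium and MGP blocks calcification. ALPL, the tissue-nonspecific alkaline phosphatase, removes pyrophosphate, an inhibitor of mineral growth, and FAM20C is the kinase of the secretory pathway that phosphorylates osteopontin and its relatives. PTHLH encodes PTHrP, which acts through OBs to raise OC formation, and EDN1 encodes endothelin-1, which stimulates OBs.

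The stretches of 250 bases before the RefSeq start sites (GRCh38.p14) of RUNX2, ALPL, BGLAP and SPP1 are shown because RUNX2 and ALPL transcripts began at more than 1 start, or because the RUNX2 motif lies there. Each is written 5′ to 3′ on the strand of the gene, which is the plus strand in all 6. Capitals mark matches to TGTGGT, the core RUNX motif, searched on both strands; here every match reads ACCACA on the printed strand.
RUNX2 distal start, chr6:45328080-45328329: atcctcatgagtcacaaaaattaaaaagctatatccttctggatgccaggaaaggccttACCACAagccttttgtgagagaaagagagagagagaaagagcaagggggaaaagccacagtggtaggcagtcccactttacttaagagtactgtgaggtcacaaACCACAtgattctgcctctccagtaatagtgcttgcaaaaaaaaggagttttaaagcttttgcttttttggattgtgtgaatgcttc
RUNX2 proximal start, chr6:45422025-45422274: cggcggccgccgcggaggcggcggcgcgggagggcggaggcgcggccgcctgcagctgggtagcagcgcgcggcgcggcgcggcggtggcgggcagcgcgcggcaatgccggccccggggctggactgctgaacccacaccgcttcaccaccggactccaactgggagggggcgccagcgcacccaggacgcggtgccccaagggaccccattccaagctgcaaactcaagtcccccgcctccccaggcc
ALPL upstream start, chr1:21509173-21509422: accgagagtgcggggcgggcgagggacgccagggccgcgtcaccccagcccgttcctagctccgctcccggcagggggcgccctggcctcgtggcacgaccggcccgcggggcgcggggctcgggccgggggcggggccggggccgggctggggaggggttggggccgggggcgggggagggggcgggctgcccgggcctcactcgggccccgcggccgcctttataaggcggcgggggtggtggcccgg
ALPL downstream start, chr1:21551020-21551269: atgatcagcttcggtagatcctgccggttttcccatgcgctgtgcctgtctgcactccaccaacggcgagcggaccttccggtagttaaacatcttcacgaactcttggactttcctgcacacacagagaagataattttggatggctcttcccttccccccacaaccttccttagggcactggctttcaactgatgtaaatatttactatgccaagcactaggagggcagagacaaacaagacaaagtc
BGLAP start, chr1:156241934-156242183: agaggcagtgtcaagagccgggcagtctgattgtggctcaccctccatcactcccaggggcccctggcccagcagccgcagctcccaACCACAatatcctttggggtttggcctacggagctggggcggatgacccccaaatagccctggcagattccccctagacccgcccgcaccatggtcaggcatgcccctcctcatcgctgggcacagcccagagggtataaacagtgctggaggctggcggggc
SPP1 start, chr4:87975464-87975713: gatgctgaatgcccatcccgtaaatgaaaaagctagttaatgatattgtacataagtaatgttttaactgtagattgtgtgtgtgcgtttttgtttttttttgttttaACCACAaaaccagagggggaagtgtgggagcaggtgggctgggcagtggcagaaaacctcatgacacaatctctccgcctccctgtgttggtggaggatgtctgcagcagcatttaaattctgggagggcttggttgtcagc
RefSeq gave 14 such windows for 9 of the 10 genes. The motif lay in 3 of them, those of the RUNX2 distal start (191 and 87 bases before the start), of BGLAP (163 bases) and of SPP1 (142 bases). By comparison, 3855 of 35116 promoters of this length (11%) held it. The proximal RUNX2 window was rich in G and C (78% against 41.6% in the distal one), as was the upstream ALPL window (83.6% against 49.6% in the downstream one). A match describes letters and is not a measured binding site.

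Total counts were 23932472 to 36719047 in the mono-cultures without RANKL and 9593426 to 15418211 in all other libraries. Depth and culture therefore cannot be told apart when co-cultures are set against these mono-cultures. Values against the mono-cultures with RANKL, whose depth was similar, are given beside the changes with MG63 cells that were called and named. Replicates 1 and 2 of DU145 with MG63 cells differed from each other with a chi-square of 183 per gene, whereas the other 23 replicate pairs gave 2.88 to 7.45. This value of a pair does not say which replicate stood apart. The prostate markers were high in BPCa lines and weaker in LPCa lines. KLK3, which encodes PSA, had mono-culture means of 4694 CPM (C4-2) and 5419 CPM (C4-2B), against 56.8 CPM in 22Rv1 and 6.64 CPM in DU145.

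The bone genes were low in these cells. Only RUNX2, ALPL, FAM20C and BGLAP, 4 of the 10, reached 100 counts in any library, which is the minimum that the study's methods set for a gene to be kept. For SPP1, IBSP, SPARC and MGP the highest counts in any of the 36 libraries were 14.7, 6.38, 17.8 and 17.4. Per length of transcript, the leading gene of the 10 in mono-culture differed by line. It was BGLAP in C4-2 and C4-2B, at 1.68 and 1.86 counts per kilobase scaled to a total of 1000000, FAM20C in DU145, at 8.74 ± 0.53 (SD, n = 3), and ALPL in 22Rv1, at 2.85 ± 0.31. In 22Rv1 BGLAP came next at 2.61 ± 0.74, a spread that covered the mean of ALPL. With coding transcripts alone the leading gene of each line was the same by its mean. It was at 1.02 ± 0.21 in C4-2, 1.01 ± 0.63 in C4-2B, 5.23 ± 0.27 in DU145 and 2.66 ± 0.25 in 22Rv1. The libraries of BGLAP and RUNX2 then overlapped in C4-2B, as did those of ALPL and PTHLH in 22Rv1.

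**Figure D1:**
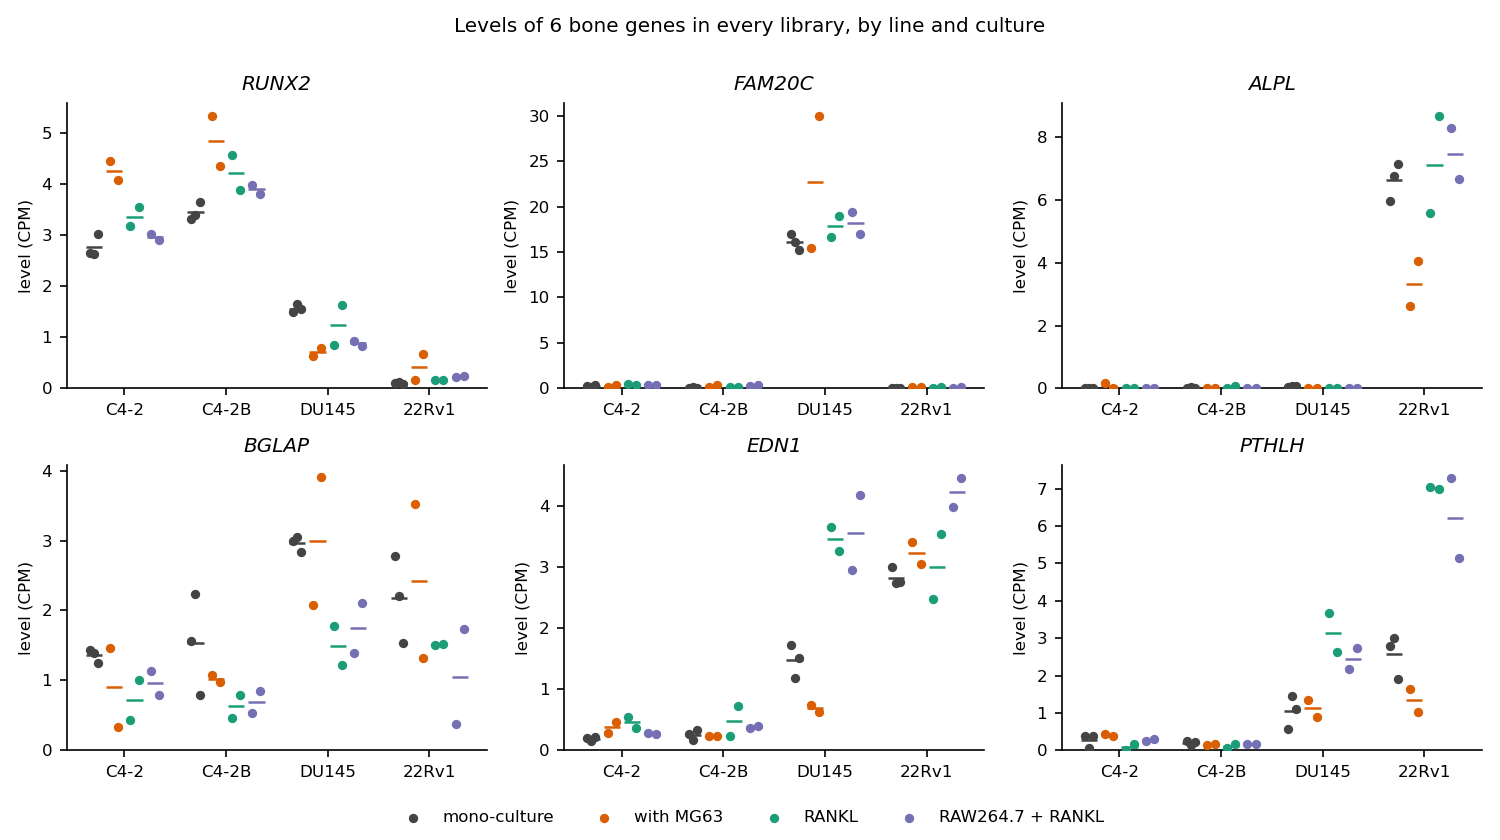
Level (CPM of the library total, 1 panel per gene with its own axis) of the 6 more abundant genes in each of the 36 libraries, by line and culture; each point is a library and the short line is the mean of its group. RUNX2 is highest in C4-2 and C4-2B, FAM20C is confined to DU145 above 1 CPM, ALPL is confined to 22Rv1 above 1 CPM, and EDN1 and PTHLH are highest in DU145 and 22Rv1.

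RUNX2 (chromosome 6, 45328157 to 45664349 on GRCh38, plus strand) separated the lines in mono-culture. Its levels in replicates 1 to 3 were 2.65, 2.63 and 3.03 CPM in C4-2 and 3.32, 3.4 and 3.65 CPM in C4-2B. They were 1.49, 1.64 and 1.56 CPM in DU145, which held 48.8 to 50.8 counts per library. In 22Rv1 they were 0.102, 0.126 and 0.0891 CPM, which is 2.56 to 3.02 counts per library, at or about the 3 counts taken as the limit of detection. Hence the order was C4-2B, C4-2, DU145 and 22Rv1, with no overlap between neighbours in these 3 libraries each. In bulk RNA, fewer expressing cells and less RNA per cell cannot be told apart. From edgeR's quasi-likelihood test, C4-2 exceeded DU145 with a log2 difference of 0.86 (standard error 0.22, adjusted p = 0.00225) and C4-2B did so with 1.22 (standard error 0.22, adjusted p = 9.21e-05). C4-2B and C4-2 differed by 0.36 (standard error 0.21, adjusted p = 0.323), which did not pass. Pooled counts gave ratios over 22Rv1 of 28.2 in C4-2 (95% exact interval 14.1 to 66.1), 35.1 in C4-2B (17.6 to 81.9) and 15.9 in DU145 (7.85 to 37.4), which cover counting error only. The BPCa average was above the LPCa average by 2.92 (standard error 0.20, adjusted p = 7.8e-10), and every call of RUNX2 between lines held when any 1 library was left out.

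The shares of the RUNX2 transcripts are given as a description. RUNX2-201, which begins at the proximal start, held 90.1% ± 5.9 of the RUNX2 counts in C4-2 mono-culture, 99.8% ± 0.35 in C4-2B and 56.2% ± 5.2 in DU145 (SD, n = 3 each). The proximal start is the one whose window, printed above, has no match to the motif. Transcripts from the distal start held 4.77% of the counts in C4-2, 0% in C4-2B and 17.4% in DU145. A further 21.9% ± 7.5 in DU145 went to RUNX2-206, an RNA of 283 bases that is annotated as processed and non-coding. With protein-coding transcripts alone, the per-length level was 0.640 ± 0.035 in C4-2B, 0.492 ± 0.064 in C4-2, 0.240 ± 0.033 in DU145 and 0.0220 ± 0.0080 in 22Rv1 (SD, n = 3), so the order of the lines was the same. When all transcripts were counted per length, DU145 came first instead, at 1.5 ± 0.32, since the short RUNX2-206 weighs heavily on that scale. These shares are kallisto's split of reads among overlapping transcripts and carry its uncertainty.

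**Figure D2:**
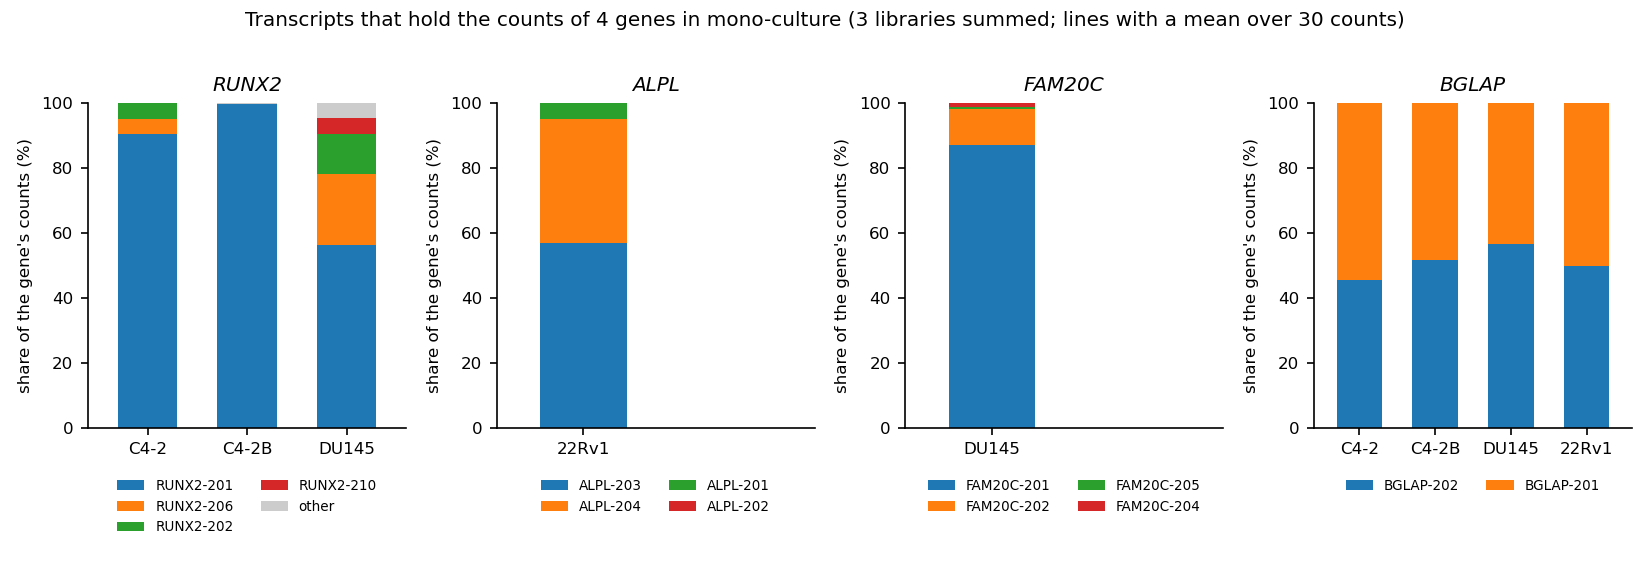
Percent of the counts of RUNX2, ALPL, FAM20C and BGLAP held by each transcript in mono-culture (3 libraries summed), for the lines with a mean over 30 counts; each stacked bar is a line. RUNX2-201 fills nearly all of C4-2B and 56.2% of DU145, ALPL-203 and ALPL-204 share the counts of 22Rv1, and BGLAP divides almost evenly between a coding and a retained-intron transcript.

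In co-culture with MG63 cells, RUNX2 passed the test in both LPCa lines, lower in DU145 and higher in 22Rv1, the latter on 1 library. In DU145, replicates 1 and 2 with MG63 cells were at 0.641 and 0.797 CPM (8.25 and 8.3 counts), below all 3 mono-cultures. The log2 fold change was -1.11 (standard error 0.34, adjusted p = 0.0233, edgeR). In 22Rv1 the same pair was at 0.155 and 0.674 CPM (2.34 and 7.94 counts), the former below its limit of detection of 0.198 CPM, with a log2 fold change of 1.83 (standard error 0.53, adjusted p = 0.0356). The change in 22Rv1 rested on replicate 2, since without it the log2 fold change was 0.31 (adjusted p = 0.907). Of its 7.94 counts, 5.74 were the non-coding RUNX2-206. With coding transcripts alone, 22Rv1 went from 0.0220 ± 0.0080 to 0.0287 ± 0.0037 per length, so the means differed by less than 1 SD, whereas DU145 went from 0.240 ± 0.033 to 0.0921 ± 0.0693 (SD, n = 3 and 2). The calls in both lines were lost against the mono-cultures with RANKL, at -0.84 in DU145 (adjusted p = 0.108) and 1.05 in 22Rv1 (adjusted p = 0.435). The DU145 call was also lost without MG63 replicate 1 (adjusted p = 0.0955) or replicate 2 (adjusted p = 0.0852), and the 22Rv1 call without any 1 of the 3 mono-cultures of 22Rv1 (adjusted p = 0.0520 to 0.090) or with edgeR's own filter (adjusted p = 0.0503). Across all genes, 30.5% of those tested were called in DU145 and 20.4% in 22Rv1.

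In BPCa cells RUNX2 was higher with MG63 cells, by a smaller step. In C4-2 the MG63 co-cultures were at 4.44 and 4.09 CPM and in C4-2B at 5.33 and 4.35 CPM, in each line above all 3 mono-cultures. Over both lines the log2 fold change was 0.64 (standard error 0.17, adjusted p = 0.0145, edgeR), in a comparison that called 19.6% of genes. Neither line passed alone: it was 0.73 in C4-2 (adjusted p = 0.0725) and 0.56 in C4-2B (adjusted p = 0.193), beside 10.1% and 7.41% of genes called. The change in C4-2 passed with DESeq2 (adjusted p = 0.0063) and in a fit of all 36 libraries (adjusted p = 0.035). The mono-cultures with RANKL lay between in C4-2, at 3.17 and 3.55 CPM, and overlapped the co-cultures in C4-2B, at 4.58 and 3.87 CPM. Against them the BPCa change was 0.27 (adjusted p = 0.395). Without MG63 replicate 1 of C4-2 or of C4-2B the adjusted p was 0.0543 or 0.0794.

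The responses themselves were also compared. RUNX2's response to MG63 cells in DU145 minus that in 22Rv1 was -2.94 in log2 units (standard error 0.63, adjusted p = 0.00779, edgeR interaction term, 10.4% of genes called). Without replicate 2 of 22Rv1 with MG63 cells the difference was -1.41 (adjusted p = 0.525), and against mono-cultures that received RANKL it was -1.89 (adjusted p = 0.121). The response in BPCa less that in LPCa was 0.28 (standard error 0.39, adjusted p = 0.687), in a comparison with 9.85% of genes called. None of the 4 genes tested passed there, with 0 at an unadjusted p under 0.05 and 0 calls by DESeq2.

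Of 16 tests of a gene in a line with MG63 cells, 2 passed, 1 higher and 1 lower, both RUNX2, in comparisons that called 10.1% of all genes in C4-2, 7.41% in C4-2B, 30.5% in DU145 and 20.4% in 22Rv1. At an unadjusted p under 0.05 there were 8. Between the lines in mono-culture 14 of 24 tests passed, 7 in each direction. This has to be read against the share of all genes called, which was 72.0% for C4-2 against 22Rv1 (3 of 4 bone genes), 78.3% for C4-2 against DU145 (4 of 4), 72.6% for C4-2B against 22Rv1 (2 of 4), 79.0% for C4-2B against DU145 (2 of 4), 79.6% for DU145 against 22Rv1 (3 of 4), 13.6% for C4-2B against C4-2 (0 of 4) and 79.8% for BPCa against LPCa. With 4 bone genes tested, no difference from these shares is read.

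**Figure D3:**
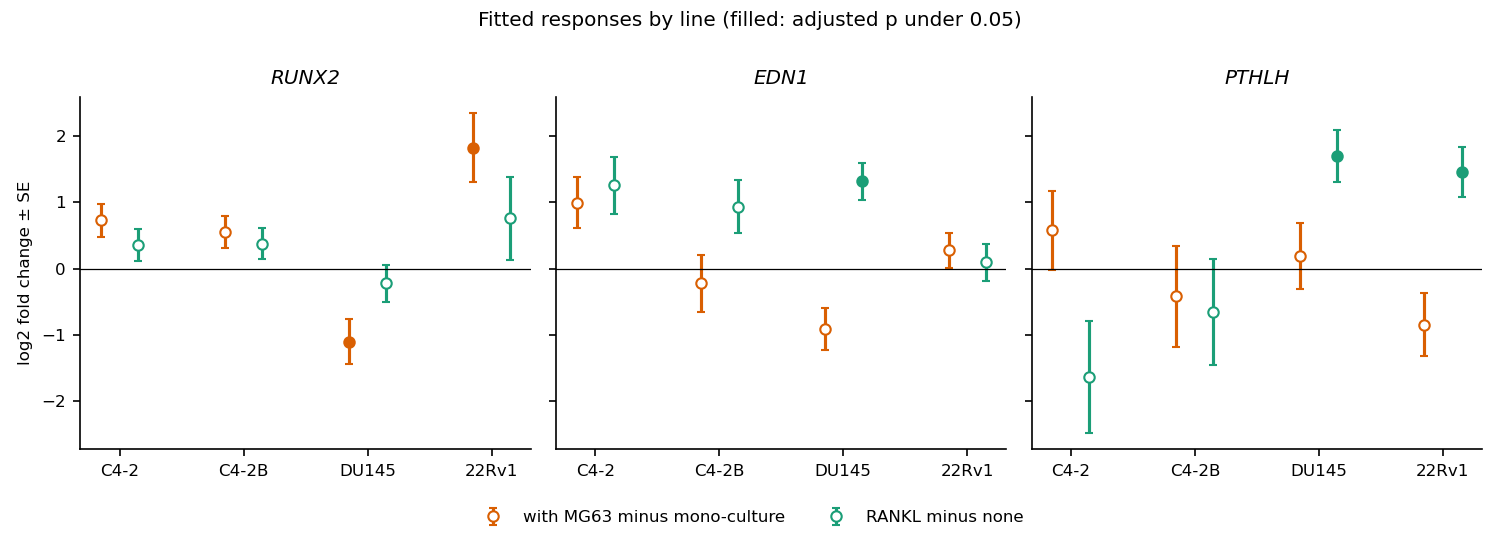
Log2 fold change with its standard error for RUNX2, EDN1 and PTHLH with MG63 cells or with RANKL against mono-culture without RANKL, by line; filled points passed an adjusted p of 0.05. RUNX2 comes from the test with a minimum of 100 counts, and EDN1 and PTHLH from the test with edgeR's own filter. The filled points are RUNX2 with MG63 cells in DU145 (-1.11) and 22Rv1 (1.83), EDN1 with RANKL in DU145 (1.32) and PTHLH with RANKL in DU145 (1.70) and 22Rv1 (1.46).

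Among the matrix proteins, BGLAP (chromosome 1, 156241962 to 156243321, plus strand) was the only one detected over 3 counts in all 36 libraries. In mono-culture DU145 was at 3.0, 3.05 and 2.84 CPM, and C4-2 at 1.43, 1.39 and 1.25 CPM. C4-2B spread from 0.789 to 2.23 CPM and 22Rv1 from 1.54 to 2.78 CPM, so these lines overlapped each other. DU145 lay above every library of the other lines in mono-culture. The ratio of pooled counts of DU145 over C4-2 was 2.18 (95% exact interval 1.76 to 2.71), and edgeR gave C4-2 minus DU145 as -1.10 (standard error 0.41, adjusted p = 0.0218). The call was lost without replicate 3 of C4-2 (adjusted p = 0.0605). BPCa minus LPCa was -0.76 (standard error 0.29, adjusted p = 0.0255), a call lost without replicate 1 of 22Rv1 (adjusted p = 0.0678) or replicate 3 of C4-2B (adjusted p = 0.0636). MG63 cells gave no call in any line (adjusted p = 0.654 to 0.917). The pairs with MG63 cells were wide, at 1.46 and 0.341 CPM in C4-2, 2.08 and 3.90 CPM in DU145 and 3.52 and 1.32 CPM in 22Rv1.

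BGLAP counts need care in what they count. The coding transcript BGLAP-201 held 43.3% to 54.4% of them in mono-culture without RANKL, and the retained-intron transcript BGLAP-202 held the rest. The readthrough gene PMF1-BGLAP, listed apart and left out of the sums, shares this sequence. It had a mean of 186 to 311 counts per library in mono-culture (6.87 to 9.76 CPM), against 42 to 94.1 for BGLAP itself. The split of reads between BGLAP and the readthrough gene is therefore uncertain.

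The other matrix genes stayed near the limit of detection. SPP1 (chromosome 4, 87975650 to 87983426, plus strand), which encodes osteopontin, was at 0 in 17 of 36 libraries and over 3 counts in 10. Its highest library was replicate 3 of DU145 mono-culture with 14.7 counts, beside 4.45 and 0 counts in the other two. In DU145 mono-culture 76.8% of the SPP1 counts were a retained-intron transcript. IBSP (chromosome 4, 87799581 to 87812435, plus strand), or bone sialoprotein, was at 0 in 16 libraries, among them all 3 mono-cultures of DU145, and over 3 counts in 12. The highest value was 6.38 counts in replicate 1 of C4-2 with RAW264.7 cells. No MG63 co-culture of DU145 or 22Rv1 held any count of SPP1 or IBSP, which at these depths allows up to 3 counts per library.

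SPARC (chromosome 5, 151661096 to 151687165, minus strand) exceeded 3 counts in 21 libraries. The mono-cultures of C4-2B held 17.8, 2.09 and 9.85 counts, so 1 line covered nearly the whole range seen. Those of C4-2 held 5.36, 7.64 and 6.42 counts, those of DU145 6.46, 5.99 and 5.03, and those of 22Rv1 5.12, 1.87 and 3.72. The pooled ratio of C4-2B over 22Rv1 was 2.22 (95% exact interval 1.08 to 4.91), a counting interval that leaves out the spread between replicates. In DU145 and 22Rv1 all 12 libraries other than these mono-cultures held at most 1.44 counts, at lower depth. By mean CPM, DU145 was at 0.183 in these mono-cultures and at 0.056 to 0.121 in its other cultures. For 22Rv1 the means were 0.133 and 0.020 to 0.058 CPM. MGP (chromosome 12, 14881181 to 14885926, minus strand), the calcification inhibitor, exceeded 3 counts in 28 libraries. Mono-cultures held 12.4, 16.4 and 14.5 counts in C4-2, 6.72, 6.77 and 5.92 in C4-2B, 16.9, 12.1 and 11.3 in DU145 and 17.4, 16.1 and 9.82 in 22Rv1. Of these, C4-2B was the lowest line and did not overlap the others, with a ratio of pooled counts of C4-2 over C4-2B of 2.43 (95% exact interval 1.39 to 4.42). With edgeR's own filter, C4-2B minus C4-2 was -1.12 for MGP (standard error 0.70, adjusted p = 0.426). The MGP counts were all retained-intron transcript in 22Rv1 (100%), and 80.3%, 62.7% and 42.18% in DU145, C4-2B and C4-2. The tests with that filter, which is lower than 100 counts, called none of SPP1, SPARC and MGP in any of the comparisons they entered, and IBSP was not kept.

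**Figure D4:**
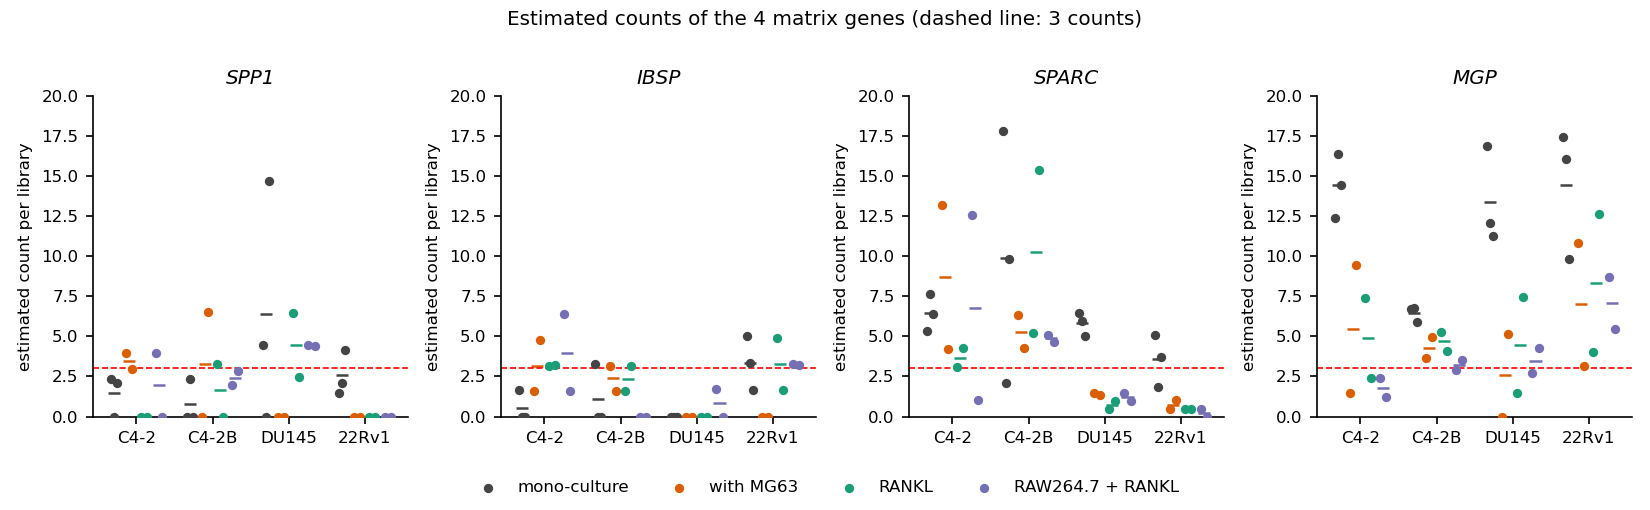
Estimated counts of SPP1, IBSP, SPARC and MGP in each of the 36 libraries by line and culture; each point is a library and the dashed line marks 3 counts, the limit of detection. Every value is at or below 17.8 counts, many SPP1 and IBSP libraries are at 0, and the mono-cultures without RANKL were sequenced more deeply than the rest.

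ALPL (chromosome 1, 21509372 to 21578412, plus strand), the alkaline phosphatase by which OBs are often stained, passed the limit of detection in the 9 libraries of 22Rv1 and in no other library. Its mono-cultures were at 5.97, 6.76 and 7.16 CPM. All 27 libraries of the other lines held at most 2.54 counts, below the limit of 3, and the mono-cultures of C4-2 held none. Thus 22Rv1 was at least 206-fold above C4-2, with C4-2 set to 3 counts over the group. The ratio of pooled counts over DU145 was 106 (95% exact interval 48.4 to 290). The edgeR difference of DU145 from 22Rv1 was -6.59 (standard error 0.52, adjusted p = 1.1e-07). A call between C4-2 and DU145 (adjusted p = 0.0311) compared 0 counts with 1.15 to 2.54 counts and was lost without any 1 of 5 libraries. The line with ALPL is thus one of the osteolytic pair, and BPCa minus LPCa was -5.80 (standard error 0.83, adjusted p = 3.42e-05), a difference carried by 22Rv1.

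With MG63 cells, ALPL in 22Rv1 was at 2.61 and 4.06 CPM, below all 3 mono-cultures and below both mono-cultures with RANKL (5.59 and 8.66 CPM). The log2 fold change of -0.88 (standard error 0.40) did not pass in edgeR (adjusted p = 0.147), nor did -1.01 against the mono-cultures with RANKL (adjusted p = 0.134). The ratio of pooled counts, mono-culture over co-culture, was 2.06 (95% exact interval 1.64 to 2.62), which covers counting error only. In 22Rv1 mono-culture ALPL-203, which begins just after the downstream window printed above, held 56.1% ± 5.4 of the counts, and ALPL-204, which starts within the upstream window rich in G and C, 39.4% ± 7.6 (SD, n = 3). With MG63 cells ALPL-203 held 73.5% ± 1.2 (n = 2), and ALPL-204 ranged from 0% to 25.7%. Both are annotated as protein coding, and the per-length level of coding transcripts alone was 2.66 ± 0.25 in mono-culture.

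FAM20C (chromosome 7, 192969 to 260745, plus strand), the kinase, was to DU145 what ALPL was to 22Rv1. DU145 mono-cultures were at 16.9, 16.1 and 15.2 CPM, the highest level of any of the 10 genes in mono-culture. C4-2 was at 0.140 to 0.353 CPM, C4-2B at 0.0473 to 0.102 CPM, and 22Rv1 held 0, 0.63 and 0 counts. Pooled counts of DU145 were 68.0 times those of C4-2 (95% exact interval 44.7 to 109) and 201 times those of C4-2B (102 to 467). In edgeR, C4-2 minus DU145 was -6.03 (standard error 0.32, adjusted p = 3.1e-11) and C4-2B minus DU145 was -7.48 (standard error 0.37, adjusted p = 1.1e-11). The BPCa average minus the LPCa average did not pass (-1.84, standard error 1.21, adjusted p = 0.175), with the LPCa lines at the extremes. The DU145 transcript was FAM20C-201, a coding transcript with 87.2% of the counts, whereas 86.1% of the few counts in C4-2 were 2 retained-intron transcripts.

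With MG63 cells FAM20C in DU145 was at 15.5 CPM in replicate 1 and 29.9 CPM in replicate 2, the pair of libraries that differed most. The log2 fold change was 0.56 (standard error 0.24, adjusted p = 0.0885). It was 0.02 (adjusted p = 0.977) without replicate 2 and 0.96 (adjusted p = 0.00145) without replicate 1. Replicate 1 thus lay within the range of the mono-cultures and replicate 2 above it. Over both LPCa lines the change was 1.89 (adjusted p = 0.0384, 35.1% of genes called). That value came from 22Rv1, which held 1.53 and 1.78 counts with MG63 cells, below the limit of 3, and it was 0.25 (adjusted p = 0.807) against the mono-cultures with RANKL.

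PTHLH (chromosome 12, 27958084 to 27972705, minus strand) and EDN1 (chromosome 6, 12290363 to 12297194, plus strand), the secreted signals to bone, reached at most 82.3 and 88.9 counts. They were tested with edgeR's own filter on low counts, which kept 18222 genes. Both were higher in LPCa than in BPCa mono-culture. EDN1 was at 3.01, 2.74 and 2.75 CPM in 22Rv1 and at 1.72, 1.19 and 1.52 CPM in DU145. In C4-2 it was at 0.201, 0.150 and 0.213 CPM and in C4-2B at 0.272, 0.163 and 0.329 CPM. The LPCa and BPCa libraries did not overlap, and BPCa minus LPCa was -3.06 (standard error 0.20, adjusted p = 5.3e-10, edgeR). PTHLH was at 2.79, 2.99 and 1.91 CPM in 22Rv1 and at 0.581, 1.45 and 1.11 CPM in DU145, against 0.0729 to 0.393 CPM in C4-2 and 0.148 to 0.247 CPM in C4-2B. BPCa minus LPCa was -2.65 (standard error 0.33, adjusted p = 1.8e-06). EDN1, known for driving OBs, was thus lower in the lines labelled osteoblastic.

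Each of EDN1 and PTHLH was called in 5 of the 6 pairs of lines, all but C4-2B against C4-2. With this filter, 61.0% of genes were called for C4-2 against 22Rv1 (5 of 9 bone genes), 67.1% for C4-2 against DU145 (6 of 9), 61.7% for C4-2B against 22Rv1 (4 of 9), 68.0% for C4-2B against DU145 (4 of 9), 68.5% for DU145 against 22Rv1 (5 of 9) and 9.60% for C4-2B against C4-2 (0 of 9). For EDN1, DU145 minus 22Rv1 was -0.94 (adjusted p = 0.00212), but in the mono-cultures with RANKL the sign turned (0.30, adjusted p = 0.416). For PTHLH the same difference was -1.29 (adjusted p = 0.00979). All PTHLH and EDN1 counts came from coding transcripts (100%).

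With RANKL, EDN1 rose in DU145 and PTHLH rose in DU145 and 22Rv1. EDN1 in DU145 went from 1.19 to 1.72 CPM without RANKL to 3.66 and 3.27 CPM with it, with no overlap. The log2 fold change was 1.32 (standard error 0.28, adjusted p = 0.000746, edgeR), and it passed in all 10 fits that left out 1 mono-culture of DU145 or 22Rv1, with or without RANKL (adjusted p = 0.000804 to 0.0214). PTHLH in DU145 was at 3.69 and 2.62 CPM with RANKL, above all 3 cultures without it, with a log2 fold change of 1.70 (standard error 0.40, adjusted p = 0.00223). In 22Rv1 PTHLH was at 7.06 and 6.99 CPM with RANKL, again above all 3 without it, at 1.46 (standard error 0.38, adjusted p = 0.00959). The call in DU145 was lost without RANKL replicate 1 (adjusted p = 0.0687), and that in 22Rv1 without mono-culture replicate 3 (0.0512) or RANKL replicate 1 (0.0617) or 2 (0.0732). Pooled counts with RANKL were 3.10 times those without it in DU145 (95% exact interval 2.28 to 4.20) and 2.81 times in 22Rv1 (2.25 to 3.49). EDN1 in 22Rv1 was at 2.48 and 3.55 CPM, which overlapped the cultures without RANKL (0.09, adjusted p = 0.887). In C4-2 and C4-2B the log2 fold changes of EDN1 were 1.26 and 0.94 (adjusted p = 0.121 and 0.275), which did not pass.

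These 3 calls were the only ones among 32 tests of a bone gene in a line with RANKL, in comparisons that called 14.4% of genes in C4-2, 11.1% in C4-2B, 25.7% in DU145 and 13.6% in 22Rv1. With the minimum of 100 counts, which keeps neither signal, 0 of 16 tests passed in edgeR, 1 had an unadjusted p under 0.05, DESeq2 called 0, and 18.3%, 14.4%, 32.5% and 17.7% of all genes were called in C4-2, C4-2B, DU145 and 22Rv1. The log2 fold change of RUNX2 with RANKL was 0.36 in C4-2 (adjusted p = 0.328) and 0.38 in C4-2B (adjusted p = 0.30). That of BGLAP was -1.18 to -0.49 in the 4 lines, with adjusted p of 0.19 to 0.587. RANKL and depth cannot be told apart in these comparisons.

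With MG63 cells EDN1 was low in DU145. It was at 0.749 and 0.626 CPM, below all 3 mono-cultures, with a log2 fold change of -0.91 (standard error 0.32, adjusted p = 0.0528, edgeR), just short of the threshold. It passed without mono-culture replicate 2 of C4-2B (adjusted p = 0.0429) or of DU145 (adjusted p = 0.0425). Against the mono-cultures with RANKL the value was -2.24 (standard error 0.36, adjusted p = 4.7e-05). PTHLH in 22Rv1 was at 1.65 and 1.04 CPM with MG63 cells, below the mono-cultures, but did not pass (-0.85, standard error 0.48, adjusted p = 0.281). Against the mono-cultures with RANKL, where PTHLH was raised, the value was -2.29 (adjusted p = 0.00122), and in DU145 it was -1.52 (adjusted p = 0.0194) instead of 0.19 (adjusted p = 0.852). These control groups differ in RANKL as well as in depth. With edgeR's own filter the MG63 comparisons called 7.40% of genes in C4-2, 5.65% in C4-2B, 20.9% in DU145 and 14.0% in 22Rv1, and 1 of 36 tests of a bone gene, RUNX2 in DU145.

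No bone gene passed with RAW264.7 cells against RANKL alone, in libraries of like depth. EDN1 in DU145 was at 2.96 and 4.19 CPM with RAW264.7 cells and at 3.66 and 3.27 CPM with RANKL alone. PTHLH in 22Rv1 was at 7.27 and 5.15 CPM against 7.06 and 6.99 CPM. The groups overlapped in both cases. With the minimum of 100 counts only FAM20C could be tested, 0 of 4 tests passed, 0 had an unadjusted p under 0.05 and DESeq2 called 0. FAM20C in DU145 differed by 0.02 on the log2 scale (adjusted p = 1). With edgeR's own filter 0 of 28 tests passed, 0 had an unadjusted p under 0.05, DESeq2 called 0, and the adjusted p of EDN1 and PTHLH were 0.885 to 1. Of all genes, the minimum of 100 counts gave 0.0174% called in C4-2, 0.139% in C4-2B, 0.0260% in DU145 and 0.00868% in 22Rv1. With edgeR's own filter the shares were 0.00622%, 0.0809%, 0.0187% and 0.00% in the same order.

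Genes of the same pathways were counted from 5 lists. Their counts are read against the shares of all genes called, which with MG63 cells were 10.1% in C4-2, 7.41% in C4-2B, 30.5% in DU145 and 20.4% in 22Rv1, and 79.8% between BPCa and LPCa. Of 12 osteoblast transcription factors other than RUNX2, 8 were tested. With MG63 cells 2 rose and 0 fell in DU145, 2 rose and 1 fell in 22Rv1, 0 rose and 1 fell in C4-2 and none was called in C4-2B. In 22Rv1 MSX1 and TWIST1, both transcription factors of mesenchyme and bone formation, rose by 1.25 (adjusted p = 0.0344) and 0.65 (adjusted p = 0.0445). The MSX1 call was lost without any 1 of 4 libraries of 22Rv1 (adjusted p = 0.0758 to 0.263), and that of TWIST1 without any 1 of 9 libraries, the 5 of 22Rv1 among them (adjusted p = 0.0603 to 0.282). With the RANKL mono-cultures as control both calls were lost, at 0.62 for MSX1 (adjusted p = 0.419) and 0.60 for TWIST1 (adjusted p = 0.170). Without a filter MSX1 also lost its call (adjusted p = 0.0655, edgeR). TWIST1 did so with edgeR's own filter, no filter, library size alone, the replicate block or all 36 libraries fitted (adjusted p = 0.0611 to 0.0952). ATF4, a stress factor that OBs need for matrix synthesis, fell from 631 ± 20.6 to 321 ± 0.27 CPM (-0.87, adjusted p = 1.95e-06), and was at -0.64 with RANKL in the control (adjusted p = 1.45e-06). Between the lines 3 were higher in BPCa and 4 in LPCa, with a median of -0.50 beside -0.015 over all genes. MSX2 was 3.08 and MSX1 2.45 higher in BPCa, whereas RUNX3 was at 7.42 CPM in DU145 and at most 0.116 CPM in the other lines.

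Of 22 other bone matrix proteins, 8 were tested. With MG63 cells 2 rose in C4-2 and 0 fell, 2 rose and 1 fell in C4-2B, 3 rose and 2 fell in DU145, and 5 rose and 1 fell in 22Rv1, where their median change was 0.75 beside 0.00097 over all genes. FN1, or fibronectin, rose in C4-2 from 542 ± 34 to 1356 ± 64 CPM (log2 fold change 1.43, standard error 0.08, adjusted p = 3.4e-08, edgeR). SMOC1, a relative of SPARC, rose in 22Rv1 from 7.17 ± 0.98 to 41.2 ± 7.6 CPM (2.63, standard error 0.22, adjusted p = 2.2e-06). SPARC itself held at most 1.02 counts in those co-cultures, against 1.87 to 5.12 counts in the more deeply sequenced mono-cultures. SPOCK1, another relative of SPARC, rose in DU145 by 1.5 (adjusted p = 0.0261), from 0.337 ± 0.103 to 0.895 ± 0.440 CPM, a call lost without MG63 replicate 1 (0.79, adjusted p = 0.418) or mono-culture replicate 2 (adjusted p = 0.0659). With RANKL in the control, the change was 0.69 for SPOCK1 (adjusted p = 0.396), and smaller but still called for FN1 (0.74, adjusted p = 4.3e-06) and SMOC1 (1.27, adjusted p = 0.00155). Between the lines 3 were higher in BPCa and 4 in LPCa (median -0.71). BPCa minus LPCa was 6.23 for FN1, -4.70 for SMOC1 and -4.88 for LUM, or lumican. The LUM difference was carried by 22Rv1 at 3.53 CPM, since DU145 and C4-2 were at 0.029 and 0.026 CPM and C4-2B at 0.

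Of 15 genes of mineralization and matrix modification, 11 were tested. With MG63 cells none was called in C4-2, 2 rose and 1 fell in C4-2B, 2 rose and 2 fell in DU145, and 2 rose and 0 fell in 22Rv1. ENPP1, which makes the pyrophosphate that ALPL removes, rose in 22Rv1 from 0.319 ± 0.182 to 0.908 ± 0.599 CPM (1.62, adjusted p = 0.0255). The ENPP1 call rested on MG63 replicate 1, without which it was 0.75 (adjusted p = 0.539), and was also lost without mono-culture replicate 1 (adjusted p = 0.0657) or 2 (adjusted p = 0.0532). LOX, which crosslinks collagen, fell in C4-2B (-1.31, adjusted p = 0.00907), and CA2, a carbonic anhydrase of OCs, rose there (0.59, adjusted p = 0.0147). Without either MG63 replicate of C4-2B the calls of LOX (adjusted p = 0.0564 and 0.129) and CA2 (adjusted p = 0.0545 and 0.161) were lost. When the control had RANKL, ENPP1 was at 0.79 (adjusted p = 0.388) and LOX at -0.31 (adjusted p = 0.668), both without a call, and CA2 at 0.95 (adjusted p = 0.000333). Between the lines 4 were higher in BPCa and 4 in LPCa (median -0.074), among them LOXL2, a relative of LOX, at 456 CPM in DU145 mono-culture.

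Of 12 genes around PTHrP and endothelin, 5 were tested. With MG63 cells 1 rose and 0 fell in each of C4-2, C4-2B and DU145, and 2 rose and 1 fell in 22Rv1. EDN2, the sister of endothelin-1, rose in DU145 from 7.92 ± 0.57 to 15.3 ± 10.2 CPM (SD, n = 3 and 2; 0.99, adjusted p = 0.00858), where EDN1 had the value of -0.91 given above. The EDN2 call rested on MG63 replicate 2, without which it was 0.11 (adjusted p = 0.736), and against mono-cultures that received RANKL it was 1.58 (adjusted p = 0.000141). FURIN, a convertase that cuts precursors of both hormones, rose in C4-2B by 0.34 (adjusted p = 0.0332), a call lost without any 1 of 3 libraries of C4-2B (adjusted p = 0.0977 to 0.366). FURIN also lost it with RANKL in the control (0.20, adjusted p = 0.319), with edgeR's own filter, no filter, library size alone or the replicate block (adjusted p = 0.0552 to 0.123). MME, or neprilysin, which degrades endothelin, was at 815 and 787 CPM in C4-2 and C4-2B mono-culture and at 1.73 and 13.4 CPM in DU145 and 22Rv1, a difference of 7.44 (adjusted p = 3.48e-19). MME was also the gene that fell in 22Rv1 with MG63 cells (-0.36, adjusted p = 0.0455, edgeR). That call was lost without any 1 of 10 libraries or with the replicate block (adjusted p = 0.0873). With RANKL in the control the value was 0.15 (adjusted p = 0.604). For ECE1, which releases active endothelin, BPCa minus LPCa was -2.39. Between the lines 2 were higher in BPCa and 3 in LPCa (median -0.55).

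Of 8 receptors of osteopontin, 6 were tested, and all 6 were lower in the BPCa average than in the LPCa average, with a median of -1.27 beside -0.015 over all genes and 79.8% of genes called. CD44 was at 172 ± 5.6 CPM in DU145 and 33.8 ± 2.7 CPM in 22Rv1, but at 0.238 and 0.254 CPM in C4-2 and C4-2B. For the integrin subunits ITGB3 and ITGB1, BPCa minus LPCa was -3.60 and -1.47, differences carried by DU145. ITGB1 was at 1674 CPM in DU145 but at 205 CPM in 22Rv1, near the 210 and 196 CPM of C4-2 and C4-2B. ITGB3 was at 11.6 CPM in DU145 and at most 0.099 CPM in the other lines. With MG63 cells 2 fell in DU145, ITGB1 (-0.44, adjusted p = 0.00193, but -0.013 and 0.919 with RANKL in the control) and ITGAV (-0.28, adjusted p = 0.0338, but -0.11 and 0.412 without MG63 replicate 2, and 0.45 in the other direction, adjusted p = 0.000392, against mono-cultures that received RANKL), and 1 rose in 22Rv1, ITGB5, from 68.9 ± 6.0 to 149 ± 4.5 CPM (1.22, adjusted p = 0.000163, and 0.94 with RANKL in the control, adjusted p = 0.000448).

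Markers of other cells were set beside these counts. Of 15 markers of MG63 and mesenchymal cells, 5 were tested. Their summed level was 51.8 to 56.2 CPM in 22Rv1 mono-culture and 69.9 to 72.3 CPM with MG63 cells, and 11.3 to 13.8 CPM and 15.2 to 20.4 CPM in DU145. Without COL1A1 and TWIST1 the sums were 20.4 to 23.8 CPM and 24.7 to 24.9 CPM in 22Rv1, and 8.94 to 9.99 CPM and 12.5 to 15.3 CPM in DU145. It was 7.15 to 12 CPM over all C4-2 libraries and 6.30 to 11.7 CPM over all C4-2B libraries. With MG63 cells, 1 of the 5 rose in DU145 (COL5A2, 1.08, adjusted p = 0.00413), 1 rose in 22Rv1 (TWIST1) and 1 fell in C4-2B (LOX). COL5A2 went from 2.16 ± 0.25 to 4.42 ± 2.37 CPM in DU145 (SD, n = 3 and 2), and without MG63 replicate 2 its change was 0.41 (adjusted p = 0.328). It was 1.02 with RANKL in the control (adjusted p = 0.00716). In the MG63 co-cultures, 8 of the 15 were at or below the limit of detection in DU145 and 4 in 22Rv1. POSTN, or periostin, was at 0 in both co-cultures of C4-2, C4-2B and DU145. In 22Rv1 POSTN was at 0 in 1 co-culture and at 0.275 CPM in the other, over the limit of detection, and at 0 in mono-culture. COL1A1 was at 2.69 to 5.08 CPM in DU145 and 3.78 to 4.61 CPM in 22Rv1, where the mono-cultures held 2.0 to 4.57 and 2.13 to 2.99 CPM. The part of these sums in the results of DU145 and 22Rv1 was not tested. Of 11 markers of macrophages and OCs, 3 were tested. Their sum was 62.7 to 64.7 CPM in DU145 with RAW264.7 cells, where 62.2 to 66.0 CPM were found with RANKL alone. Since RAW264.7 is a mouse line and the transcripts counted are human, these sums cannot show how much RNA came from RAW264.7 cells. With MG63 cells 1 rose and 1 fell in 22Rv1 (CD68, 0.78, and CTSK, -1.15). The CD68 call was lost without any 1 of the 5 libraries of 22Rv1 (adjusted p = 0.0505 to 0.139), and that of CTSK without MG63 replicate 1 (adjusted p = 0.0665). With RANKL in the control CD68 was at 0.50 (adjusted p = 0.181) and CTSK at -1.70 (adjusted p = 0.00117), and with the replicate block CD68 was at 0.74 (adjusted p = 0.0528). All 12 prostate and epithelial markers were tested, and with MG63 cells 8 rose and 3 fell in 22Rv1, where KLK3 went from 56.8 to 105 CPM (0.99). That change was 0.19 with RANKL in the control (adjusted p = 0.209). In DU145 2 rose and 1 fell, in C4-2 1 fell, and in C4-2B 4 fell. Between the lines 10 were higher in BPCa and 2 lower.

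Finally, the genes most like each of the 4 tested bone genes were found by Pearson's r of log2(CPM + 1) over the 16 group means, as a description. These means share lines and controls, and r mainly follows the differences between lines. For RUNX2 they were REEP6, RNF11 and TRERF1, each at r = 0.983, and REEP6 was at 39.9, 61.5, 21.9 and 4.18 CPM in C4-2, C4-2B, DU145 and 22Rv1 mono-culture. For BGLAP they were ZNF512 (0.943), ASIC1 (0.919) and PDCL (0.912), a looser match. For ALPL they were XCL1 (0.998), KHDRBS2 (0.997) and SLITRK1 (0.997), of which XCL1 was at 5.36 CPM in 22Rv1 and SLITRK1 at 5.43 CPM. For FAM20C they were TNFSF12 (0.998), SERPING1 (0.997) and EFHD2 (0.997), of which TNFSF12 was at 19 CPM in DU145 and at or below 0.20 CPM in the other lines.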

How the data were processed

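RNA of 36 cultures of human PCa lines was sequenced (poly-A selection, strand-specific, DNBSEQ-G400). The authors quantified reads with kallisto, and the deposited values are estimated counts per transcript, not normalized. The labels name hg19, whereas the annotation used here was GENCODE 29 on GRCh38, matched by transcript ID (95.39% of transcripts had a length). The table had 161149 lines and 159837 transcripts, and transcripts with repeated lines (2491 lines) were each used once for each gene symbol. Counts were summed by gene symbol, and 6878 transcripts without a symbol (0.526% to 0.764% of counts) were kept in library totals only.

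Gene sums were rounded and tested with edgeR 4.0.16 in R 4.3.3 (TMM, quasi-likelihood, 1 mean per line and culture, Benjamini-Hochberg over all genes tested, called under 0.05). The minimum was 100 counts in at least 1 library fitted, after the study's minimum, which the study applied after a scaling step not present in the deposited values. This kept 13437 genes for the 20 libraries without RANKL, 13454 for all 36 and 11525 for the 16 with RANKL. Each phenotype was the average of its 2 lines. In the fit of 36 libraries RANKL was compared with no RANKL. EDN1 and PTHLH were tested with edgeR's default filter (18222 genes, and 17083 for RANKL). Ratios used pooled counts rounded to whole numbers. Exact 95% intervals of ratios and the limit of 3 counts cover counting error only. The study describes its bar graphs as averages over independent experiments. No source used here says this of the libraries one by one, and groups other than mono-culture had 2, so p-values measure only the spread between these samples, which may be technical.

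The 10 genes, the 5 lists and the tests were chosen with earlier results of these data known. Genes named besides them are the up to 3 with the largest change that passed in each list, with MG63 cells in a line and between the phenotypes, the 3 most like each tested gene, and whole marker lists, with single markers named as examples. On simulated data for the MG63 comparison, 49 of 50 genes raised 4-fold and 41 of 50 raised 2-fold were recovered. So were 44 of 50 lowered 4-fold and 37 of 50 lowered 2-fold, and 11 of 13084 unchanged genes were called. The changed genes were drawn from those with a mean expected count above 50. These rates therefore do not describe genes with fewer counts. Alternatives changed the filter, scaling, tool (DESeq2 1.42.0), samples fitted, control, threshold and replicate block, and left out each library in turn. Python 3.11.15, numpy 2.4.6, pandas 2.3.3, scipy 1.17.1 and matplotlib 3.10.9 were used.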

Additional observations from a re-analysis of the deposited data

Results flagged for a closer look

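The response of RUNX2 to MG63 cells differed between the LPCa lines. DU145 minus 22Rv1 was -2.94 on the log2 scale by the interaction term of edgeR (adjusted p = 0.00779). Both DU145 co-cultures were below their mono-cultures, whereas 22Rv1 replicate 1 with MG63 cells held 2.34 counts, below its limit of detection. All 22Rv1 libraries of this comparison held at most 7.94 counts of RUNX2. Without replicate 2 of 22Rv1 with MG63 cells, of whose counts most were the non-coding RUNX2-206, the difference was -1.41 (adjusted p = 0.525).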

How the results depend on the processing

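The number of bone genes called with MG63 cells, 2 of 16, was 1 without a filter, 1 with edgeR's own filter, 4 with DESeq2, 4 with all 36 libraries fitted, 4 with a fold above 2 and an unadjusted p, and 0 against mono-cultures that received RANKL. With single libraries left out it was 1 to 4. It was 1 without each mono-culture replicate of 22Rv1, without which the RUNX2 call there was lost, and 4 without MG63 replicate 1 of DU145. Between lines, 14 calls of 24 tests became 25 of 60 without a filter and 24 of 54 with edgeR's own filter, because more bone genes were tested, 11 of 24 in the mono-cultures with RANKL, and 12 to 17 with single libraries left out. With RANKL, 0 calls became 3 without a filter, 3 with edgeR's own filter and 1 with the fold rule. The count with RAW264.7 cells was 0 under every alternative run, and that of different responses in BPCa and LPCa was 0 under all but edgeR's own filter against mono-cultures that received RANKL, which gave 1 (PTHLH, 3.14, adjusted p = 0.00664, edgeR). Alternatives that combined edgeR's own filter with a second change were added after seeing the data. They gave 24 calls between lines with the replicate block, with library size alone and with DESeq2, 23 in mono-cultures with RANKL, and 3 calls with RANKL under each. With MG63 cells they gave 3 calls against mono-cultures that received RANKL, 3 with DESeq2, 2 with library size alone and 0 with the replicate block.

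Replicate numbers came from the labels, and no source used here says that they mark cultures handled together. Deviations from group means correlated at -0.077 to -0.013 for same-numbered libraries of MG63 co-cultures and mono-cultures and at -0.030 to 0.077 for others. With the RANKL and RAW264.7 groups same-numbered pairs reached at most 0.058, and none passed 0.1. In a group of 2 libraries the deviations mirror each other. These values therefore cannot show whether same-numbered cultures were handled together. The replicate block gave 2 calls with MG63 cells and 15 between lines, and 0 with MG63 cells under edgeR's own filter.

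With the mono-cultures with RANKL in place of those without, 4 values that had been called changed sign. PTHLH in DU145 with MG63 cells, not called before, also turned, from 0.19 to -1.52, and passed. EDN1 in DU145 minus 22Rv1 became 0.30, and ITGAV in DU145 with MG63 cells 0.45, which passed in the new direction. MME in 22Rv1 with MG63 cells went from -0.36 to 0.15, and CD68 in BPCa minus LPCa from 0.42 to -0.087. The cause was not tested. SPP1, IBSP, SPARC and MGP held few counts at every depth, at most 17.8 in a library, so a change of moderate size could be missed.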
